A study of Mus musculus with 661 samples.

Results

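M2 is 1 of 16 clusters of mesenchymal cells from mouse bone and bone marrow, and it was taken here as every cell whose sample label names cluster 2 of the non-endothelial cells. It held 50 of the 354 mesenchymal cells, 14.1%, in a series of 661 cells. The study followed how the stromal niche of the marrow changes with age in C57BL/6 wild-type mice. Stromal cells of young and old mice were sorted, sequenced 1 cell at a time on plates, and clustered by the authors. MSC-L are LepR-positive cells that lie along the sinusoids of the flushed central marrow, while mOPr and OPr are osteoprogenitors released from bone chips by collagenase, with and without PDGFRα on the surface. The cluster set beside M2 is M1, the non-endothelial cluster 1, with 86 cells. The labels name neither the mouse nor the sex of a cell. Each cluster is therefore 1 sample here, and no test or p-value is given.

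LepR-positive cells of the marrow are a main source of Cxcl12, the chemokine that holds blood stem cells in the marrow, and of Kit ligand, which these stem cells need. The same cells give rise to marrow adipocytes and, in the adult, to osteoblasts. Adipoq, the adipocyte hormone adiponectin, is already expressed in them before any fat is stored.

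Over all cells, the 3 defining markers were lower in M2 than in M1, with wide overlap between the cells. Levels are counts per 1000000 nuclear counts (CPM) after every cell had been thinned, by random draw, to the same 100000 nuclear counts. Cxcl12 ranged from 1800 over a median of 30780 to 68830 CPM in M2 and from 25150 over 51345 to 74470 CPM in M1. Of 49 thinned M2 cells, 17 lay below the lowest M1 cell and 5 lay above the M1 median. The means were 30392 CPM (30238 to 30546) and 48738 CPM (48591 to 48886), a log2 ratio of -0.68. Brackets after a mean or share hold 95% intervals that do not cover the spread between mice. Those of a mean treat every read as an independent count and leave out the spread between cells as well. PCR copies are counted as reads, so the intervals of means may be too narrow even for counting error.

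Lepr, the leptin receptor that the sort gate is built on, spanned 70, 1550 and 8230 CPM (lowest, median, highest) in M2 and 830, 2990 and 8200 CPM in M1. Its log2 ratio was -0.41, and 16 M2 cells exceeded the M1 median. Adipoq spanned 0, 310 and 6410 CPM in M2 and 60, 1700 and 7450 CPM in M1, at a log2 ratio of -0.80. It had no read in 12 of 49 M2 cells, although 9 other M2 cells exceeded the M1 median. Reads of all 3 markers were found in 37 of 49 M2 cells, in 86 of 86 M1 cells and in 6 of the 214 thinned cells of the other mesenchymal clusters. By age, the drop was uneven. Among young cells sorted as MSC-L (12 in M2, 39 in M1), mean Adipoq was 2350 CPM in M2 and 2155 CPM in M1 and mean Lepr 3617 and 3194 CPM, although the medians were lower in M2, at 1610 against 1800 CPM for Adipoq and 2650 against 2900 CPM for Lepr. Mean Cxcl12 was lower there, at 32376 against 53687 CPM. Among old cells of the same sort, mean Adipoq was 533 against 1517 CPM and mean Lepr 2440 against 3567 CPM.

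The label of M2 as an MSC-L cluster matched its markers: mean Cxcl12 was 1184 CPM in M5 and 476 CPM in M6 to M16.

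M2 cells held fewer counts, fewer detected genes and a larger mitochondrial share than M1 cells. Nuclear counts per cell spanned 87576, 282838 and 1488549 in M2 and 106484, 461150 and 1167692 in M1. After thinning to equal counts, 2374, 3814 and 8484 nuclear genes were detected per M2 cell and 3672, 5115 and 6213 per M1 cell. Of the 49 M2 cells, 19 had fewer genes than every M1 cell and 45 had fewer than the M1 median, so thinning did not bring the clusters to the same number of genes. Whether the lower number of genes accounts for any change below was not tested.

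The mitochondrial share was 0.664, 2.44 and 8.87% in M2 and 0.499, 1.22 and 3.23% in M1. It was above the M1 median in 40 of 49 M2 cells and above every M1 cell in 11. All 13 mitochondrial protein-coding genes had a higher mean share in M2, by a ratio of 1.79 or more, among them mt-Cytb at 2.17, mt-Nd1 at 1.93 and mt-Co1 at 1.85. The difference went with the place of sorting: the median share was 2.96% in the 35 M2 cells sorted as MSC-L and 1.33% in the 15 sorted as mOPr or OPr, against 1.22% and 1.06% in M1. Genes detected per cell were lower in M2 in both, at medians of 3735 and 4068. What the mitochondrial share reflects was not tested.

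**Figure D1:**
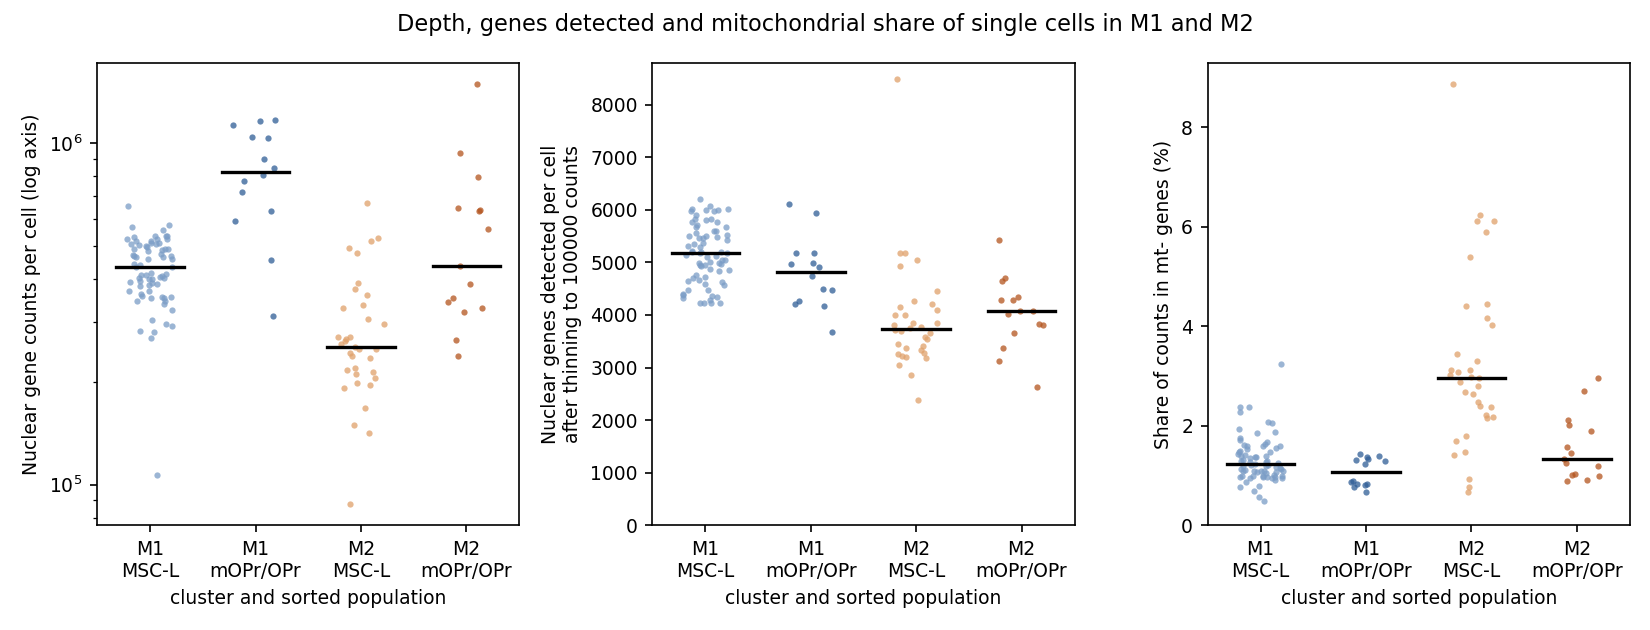
Nuclear counts, nuclear genes detected after thinning and percent of counts in mitochondrial genes for each cell of M1 and M2, split by the population it was sorted as. Points are cells and bars are medians; the high mitochondrial shares lie among M2 cells sorted as MSC-L, with a median of 2.96%.

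Genes were called by size of the difference from M1. A gene was called gained or lost when its mean level, with 10 CPM added, differed by a ratio of 2 and the mean of the log2 levels differed in the same direction. Of 11153 genes compared, 511 (4.58%) were gained and 645 (5.78%) were lost, and the median log2 ratio of all of them was -0.03. Since the clusters were drawn from these same counts, the numbers describe the clusters and are no evidence that they exist. The clusters also mix sorts and ages unequally. Cells sorted as mOPr or OPr were 15 of 50 in M2 and 14 of 86 in M1, and old cells 36 of 50 and 44 of 86.

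The direction of a gained gene was less stable than that of a lost gene. It was kept in all of 5 subsets of cells (each of 2 library-number ranges, cells sorted as MSC-L, old cells and young cells) by the ratio of means of 324 gained genes (63.4%) and 603 lost genes (93.5%). By the mean of the log2 levels, whose median difference over all genes was -0.22, it was kept by 225 (44%) and 606 (94%). The highest M2 cell held a median of 31.4% of the M2 reads of a gained gene, 38.8% of a lost gene and 28.7% of a gene that was neither. Without the highest cell of each cluster for each gene, 246 gained genes (48.1%) and 612 lost genes (94.9%) kept their call. The counts were then 251 gained and 1130 lost. Median-of-ratios scaling sets each cell's scale by the genes found in every cell, here only 69. It moved the median log2 ratio of all genes to 0.17 and the counts to 1351 gained and 393 lost. Without the filter for detection they were 757 gained and 716 lost. The balance of gained and lost thus turned with the scaling and with the filter. Levels below are best read against the median of all genes, and list counts over all cells against 4.58% gained and 5.78% lost.

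By share of cells, loss was far more common than gain. With a difference of 25 percentage points required, 868 genes (7.78%) were detected in fewer M2 cells and 7 (0.0628%) in more. The 7, listed after the values were seen, were Gsn, Col6a3, Mmp2, Myh3, Mrgpre, Cdrt4os1 and Gm10925. With another seed the count was 4, so the names depend in part on the random draw. Across all genes the median difference was -9.56 points, and 685 of the 868 genes were neither gained nor lost by level.

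The 15 lost genes named here are those with the largest difference in mean log2 level among genes that kept their direction in the 5 subsets. Lpl, the lipoprotein lipase that frees fatty acids from circulating fat (chromosome 8, 68880491 to 68907448), spanned 0, 120 and 2300 CPM in M2 and 70, 1820 and 9870 CPM in M1. Only 2 M2 cells exceeded the M1 median and 20 lay below the lowest M1 cell. Its mean was 437 CPM (418 to 456) in M2 and 2221 CPM (2189 to 2252) in M1, at a log2 ratio of -2.32.

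Agt, the precursor of angiotensin, spanned 0, 40 and 3620 CPM in M2 and 0, 1060 and 3220 CPM in M1, at -2.04, and was read in 30 of 49 M2 cells and 85 of 86 M1 cells. Hp, the hemoglobin-binding haptoglobin, spanned 0, 950 and 18050 CPM in M2 and 660, 5515 and 20210 CPM in M1, at -1.16. As with Lpl, 20 M2 cells lay below the lowest M1 cell for Hp, yet 11 were above its M1 median. Esm1, a secreted proteoglycan, was lost at -1.50 and Clu, the extracellular chaperone clusterin, at -1.59.

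Of the other lost genes picked by this rule, the bone morphogenetic proteins Bmp4 and Bmp6 were lost at -2.40 and -1.56, and Bmp4 spanned 0, 10 and 1070 CPM in M2 and 0, 565 and 3050 CPM in M1. The matrix protein Prelp was lost at -2.27, Ptx3, a soluble pattern recognition protein, at -2.60, and Lgals3bp, a galectin-binding glycoprotein, at -1.46. Serpina3c, of a family of near-identical protease inhibitors, was at -1.76, Islr at -1.09 and Epdr1 at -1.27. Beside them stood Rpn2, a subunit of the enzyme that attaches N-glycans, at -1.32, and Ak3, a mitochondrial adenylate kinase, at -1.56 over all cells and 0.084 in cells sorted as mOPr or OPr.

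The 15 gained genes were picked in the same way. Gsn, the actin-severing protein gelsolin (chromosome 2, 35256380 to 35307892), spanned 0, 80 and 22220 CPM in M2 and 0, 10 and 530 CPM in M1. It was read in 46 of 49 M2 cells and 53 of 86 M1 cells, with 39 M2 cells above the M1 median. Its mean was 1173 CPM (1143 to 1203) against 80.5 CPM (74.6 to 86.7), a log2 ratio of 3.71, but 38.7% of the M2 reads came from 1 cell. Col6a3, a chain of collagen VI, was gained at 3.01 and read in 31 of 49 M2 cells and 20 of 86 M1 cells, and Mmp2, a gelatinase, at 1.75 in 27 and 21 cells.

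Wif1, a secreted Wnt inhibitor, spanned 0, 60 and 7760 CPM in M2 and 0, 10 and 1880 CPM in M1, at 2.55. The neural cell adhesion molecule Ncam1 spanned 0, 20 and 2000 CPM in M2 and 0, 0 and 1350 CPM in M1, at 1.86. Map1b, a microtubule-binding protein of axons, spanned 0, 200 and 4070 CPM in M2 and 0, 25 and 1980 CPM in M1, at 1.30. For Map1b 34 of 49 M2 cells exceeded the M1 median, for Ncam1 32 and for Wif1 28. Cadm1, another adhesion molecule, was at 1.92 and the calcium-binding protein S100b at 1.65.

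Also among the 15, the phosphodiesterases Pde7b and Pde4d were gained at 1.18 and 1.63, the potassium channel Kcnh1 at 1.82, the deacetylase Sirt1 at 1.68 and the DNA repair gene Fancc at 1.91. Neat1, the RNA scaffold of paraspeckles, spanned 10, 1430 and 24690 CPM in M2 and 10, 510 and 4590 CPM in M1, at 1.63. Rn7sk, a small nuclear RNA with many copies in the genome, was at 1.23, a value that depends on where its reads were placed.

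**Figure D2:**
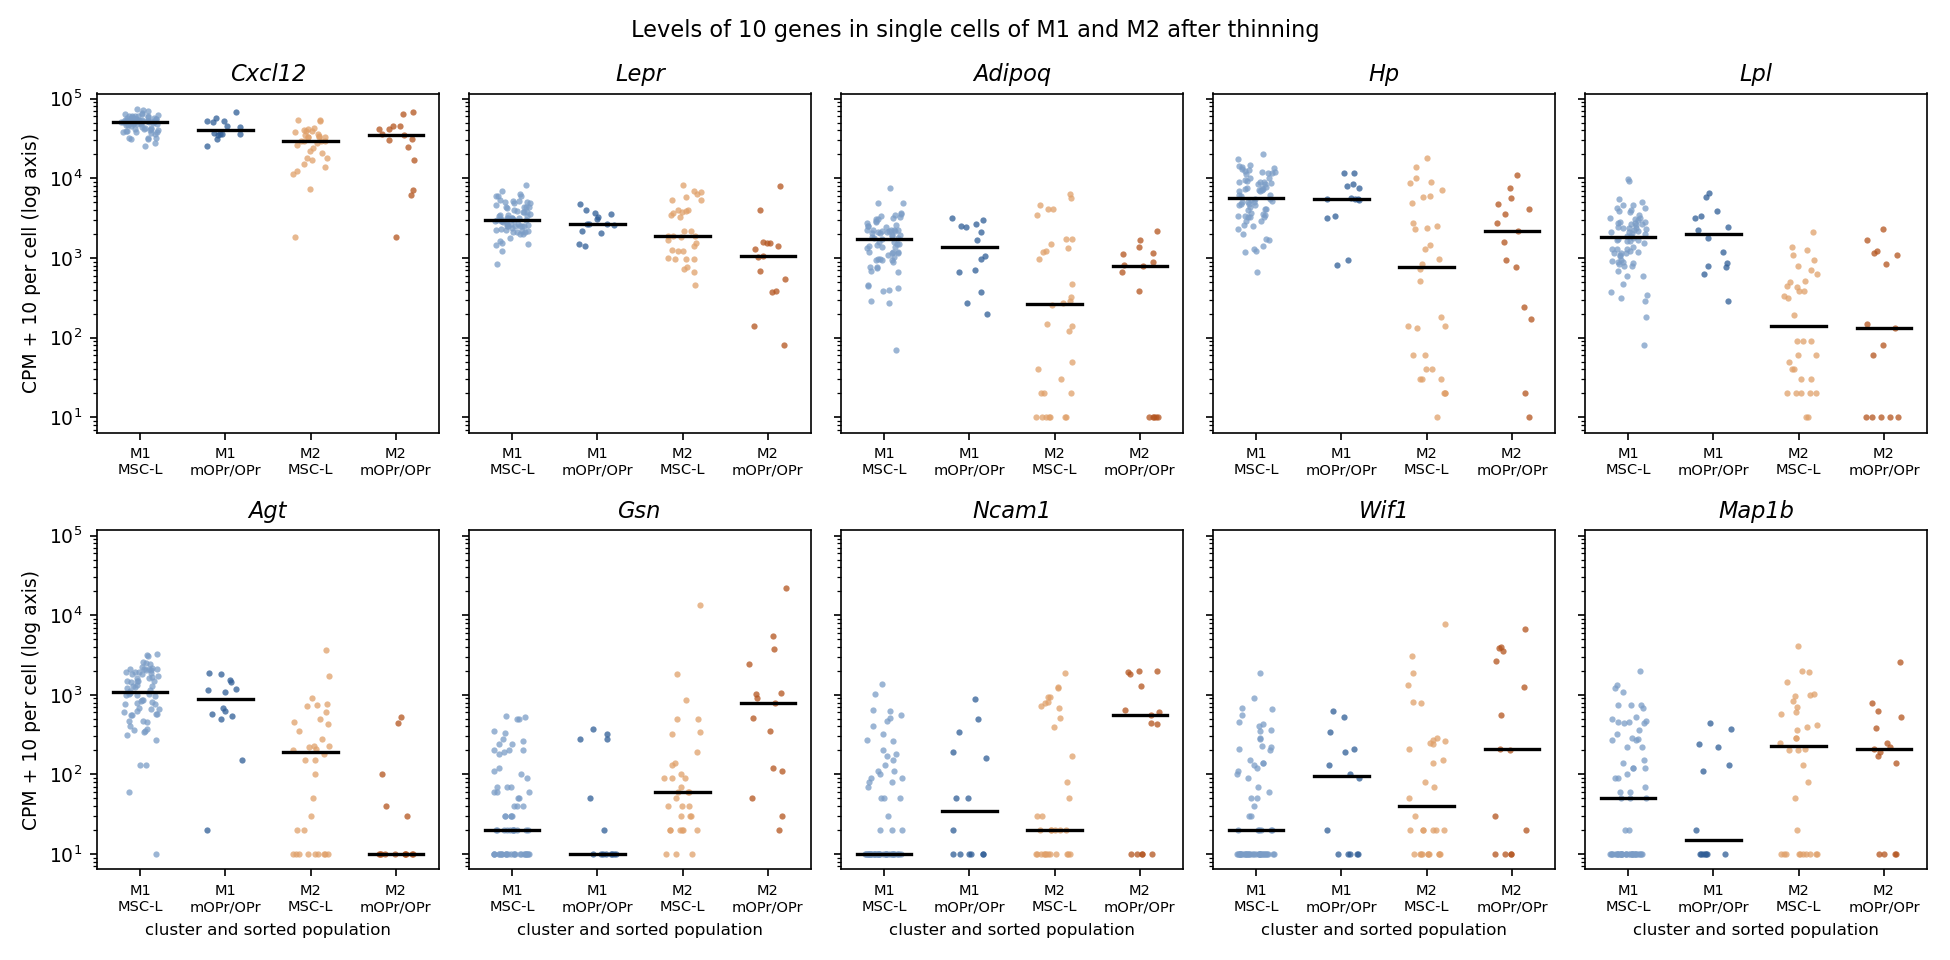
Levels of 10 genes in single cells of M1 and M2, in CPM with 10 added on a log axis, split by the population each cell was sorted as. Points are cells and bars are medians; Lpl lay below the lowest M1 cell in 20 M2 cells, and the Gsn mean of M2 rested in part on 1 cell with 38.7% of its reads.

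The MSC-L program was lowered in M2 rather than absent from it. All 24 MSC-L markers were compared, and 22 were lower in M2 and 2 higher, at a median log2 ratio of -0.56 beside -0.03 for all genes. Among those lost were Hp, Lpl, Gas6, Esm1 and Snai2, and none was gained. Gas6, a growth factor for TAM receptors, was at -1.15 and the transcription factor Snai2 at -1.11. Vcam1, which binds blood cells, was at -0.81 without passing the rule.

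Other transcription factors of the list passed neither call. Ebf1, Foxc1 and Ebf3, which maintain these cells, were at -0.05, -0.27 and -0.50, and the growth factor receptor Pdgfra at -0.13. The highest value of the list belonged to Pth1r, the parathyroid hormone receptor, at 0.74, and the chemokine Cxcl14 followed at 0.26. Of the 24 markers, an M2 cell carried a median of 21 (15 to 23) at 10 CPM or more and an M1 cell a median of 23 (20 to 24). M2 cells also differed more among themselves: the standard deviation of the log2 level was larger in M2 for 22 of 24 markers, against 6414 of 11153 genes in all. The markers include 16 of the guide genes by which the authors' software built the clusters, so neither their direction nor their spread is independent of the label.

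Factors that support blood cells were mostly lower. Of 22 compared, 16 were lower and 6 higher, at a median of -0.38, with 4 lost (Il15, Vegfc, Bmp4, Bmp6) and 1 gained (Tgfb2). Guide genes of the authors' clustering make up 11 of the 22, so the direction of this list is not independent of the label either. The median was -0.18 with 4 of 22 lost in cells sorted as MSC-L and -0.92 with 10 of 22 lost in cells sorted as mOPr or OPr, where 10.8% and 16.3% of all genes were lost. Il15, which sustains lymphocytes, was at -1.45 and the vessel growth factor Vegfc at -1.23, while Tgfb2 was gained at 1.73 from a low level. Kitl, or Kit ligand, spanned 0, 730 and 8940 CPM in M2 and 270, 1445 and 6310 CPM in M1, at -0.35, so it passed neither call. Il7 and Csf1, growth factors of lymphoid and myeloid cells, were at -0.28 and -0.41, and 7 of the 22 genes were detected in fewer M2 cells, against 7.78% of all genes.

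Of 17 adipogenic genes compared, 12 were lower, at a median of -0.47 beside -0.03 for all genes. Lpl, Fabp4, Cebpa and Klf15 were lost and Cebpb gained, where 5.78% of all genes were lost and 4.58% gained. The adipogenic transcription factors Cebpa and Klf15 were at -1.02 and -1.16, and Fabp4, a fatty acid carrier, at -1.55 from a low level and at 0.38 in cells sorted as mOPr or OPr. Pparg, the master regulator of fat cells, was at -0.63 and was read in 26.5% of M2 cells and 61.6% of M1 cells. Cebpb stood at 1.04 over all cells but at -0.48 in cells sorted as MSC-L, with means of 30.6 CPM in M2 and 46.8 CPM in M1, and at -0.34 in young cells. In cells sorted as mOPr or OPr its means were 496 CPM in M2 and 244 CPM in M1. The median of the list shrank to -0.02 with counts summed over each cluster and to -0.12 without the filter for detection.

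Osteoblast genes moved the other way. Of 20 compared, 15 were higher, at a median log2 ratio of 0.81, with 8 gained (Alpl, Mmp13, Col1a1, Wif1, Omd, Cadm1, Limch1, Kcnk2) and none lost. Of all genes, 4.58% were gained. Alpl, the alkaline phosphatase of mineralizing cells, had a mean of 745 CPM (721 to 769) in M2, at 2.73, and was read in 51% of M2 cells and 44.2% of M1 cells. Mmp13, a collagenase of bone, was at 1.67 and the collagen gene Col1a1 at 1.23. The osteoblast transcription factors Runx2 and Sp7 were at 0.07 and 0.90, and Ibsp, a bone matrix protein, at -0.76. An M2 cell and an M1 cell both carried a median of 12 of the 28 osteoblast markers.

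The osteoblast list differed by place of sorting. Set against M1 cells of the same sort, the median of the osteoblast list was 0.37 in cells sorted as MSC-L (7 of 20 gained) and 1.44 in cells sorted as mOPr or OPr (14 of 24). Of all genes, 6.59% were gained in the former and 13.5% in the latter. Mean Alpl was 275 CPM in M2 cells sorted as MSC-L and 1811 CPM in those sorted as mOPr or OPr, against 111 and 69.3 CPM in M1. Without the highest cell of each sort it was 166 and 1384 CPM, against 98.6 and 43.1 CPM. Median Alpl was 0 and 30 CPM in M2, against 0 and 10 CPM in M1, so few cells carried the means. Mean Gsn was 553 and 2577 CPM in M2, and 167 and 1174 CPM without the highest cell of each sort, against 78.6 and 90.0 CPM in M1. The MSC-L markers, by contrast, were lower in both sorts, at -0.58 and -0.83.

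Matrix genes were compared in 3 lists. Of 16 fibroblast and MSC-S genes, 11 were higher, at a median of 0.31, with Gsn, Col3a1, Timp3 and Ugdh gained and none lost. Guide genes make up 12 of these 16, so the direction of this list is not independent of the clusters. With median-of-ratios scaling the list stood at 0.17, the median of all genes, and in library-number range 1 alone Col3a1 turned to -0.21. Of 25 basement membrane and adhesion genes, 18 were lower, at -0.39, with Col4a2, Nid1, Nid2 and Itga8 lost and Lama2, Itgb5 and Ncam1 gained. Col4a2, of the collagen IV network, was at -1.30, the linker protein Nid1 at -1.10, and Lama2, a laminin chain, at 1.29. Among 22 interstitial collagen and crosslinking genes, Col1a1, Col3a1 and Col6a3 were gained and Col16a1, Lox and P4ha2 lost, with the crosslinking enzyme Lox at -1.40. Their median was -0.22, and 0.11 with median-of-ratios scaling, below the 0.17 of all genes.

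Wnt and hedgehog genes had 14 of 22 members lower, at a median of -0.27, with Fzd1, Wnt4, Tcf7 and Hhip lost and Wif1 among those gained. Fzd1, a Wnt receptor, was at -1.61 and the ligand Wnt4 at -1.11. The 28 BMP and TGF-beta genes were evenly split, 14 higher and 14 lower, although Bmp4, Bmp6 and the activin antagonist Fst were lost and Tgfb2 gained. Of 27 cytoskeletal genes 20 were lower, at -0.36, with Vim, Vcl, Zyx and Tubb6 lost and the nuclear lamin Lmna gained; vimentin (Vim) was at -1.05, and Zyx turned to 0.32 in cells sorted as mOPr or OPr. Stromal transcription factors stood at -0.03, with Ebf2 and Hoxa9 gained and Snai2 and Meis2 lost. With median-of-ratios scaling they stood at 0.35, beside 0.17 for all genes.

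Stress and immediate early genes were raised in part. Of 21 immediate early genes 17 were higher, at a median of 0.51, with Ier3, Ier5, Atf3, Btg2 and Klf4 gained, but 78% of the Klf4 reads of M2 lay in 1 cell. In cells sorted as MSC-L Ier3 and Ier5 turned to -0.58 and -0.39, in young cells Ier5 turned to -2.42, and in library-number range 2 Klf4 turned to -1.09. Of 10 genes of the integrated stress response 8 were higher, at 0.60, with Atf4, its central transcription factor, at 1.03 and Ppp1r15a, which ends the response, at 1.95. By sort this list stood at 0.23 in cells sorted as MSC-L, where Atf4 was at 0.23 and not gained, and at 0.80 in cells sorted as mOPr or OPr, with 5 of 11 gained and 1 lost beside 13.5% of all genes gained. Immediate early genes also move with the time and enzyme a sort takes, and this was not tested. The immediate early list stood at 0.32 in cells sorted as MSC-L and at -0.04 in cells sorted as mOPr or OPr.

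Other stress and immune lists had few members gained or lost. The unfolded protein response was at -0.23 with Sdf2l1 lost, heat shock at -0.22 with Hspa1b gained and Dnajb1 lost, and the interferon response at 0.11 with Ifit2 gained and Xaf1 lost. The p53 list was at -0.12, with the cell cycle inhibitor Cdkn1a, at 1.88, and Fas gained and Casp8 lost. NF-kB targets were at -0.11 with Tnfaip3 and Traf1 lost. In young cells Ifit2, Fas and Sdf2l1 turned to -0.87, -0.79 and 0.58, and Ifit2 was also at -0.40 in cells sorted as MSC-L and -0.082 in library-number range 2. In cells sorted as mOPr or OPr heat shock stood at -0.52 with 5 of 15 lost and NF-kB targets at 0.40 with 4 of 17 gained and 2 lost, where 13.5% of all genes were gained and 16.3% lost, against 0.00 and -0.31 in cells sorted as MSC-L.

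Cdkn2a, a marker of senescence, had no read in M2, and Il1b averaged 0.816 CPM against 1.63 CPM in M1. Set against the median of all genes, the unfolded protein response stayed lower under median-of-ratios scaling, at -0.20 before and -0.12 after. Heat shock, p53 and NF-kB targets went from -0.19, -0.09 and -0.09 to 0.10, 0.01 and 0.16.

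Genes for basic cell functions were detected in fewer M2 cells, mainly among cells sorted as MSC-L. The 80 cytosolic ribosomal protein genes had a median of -0.02 with 1 gained (Rpl3), and the 78 nuclear genes of oxidative phosphorylation were at -0.12 with 1 lost (Sdhd, which turned to 0.49 in cells sorted as mOPr or OPr). Their median differences in detection were -14.9 and -20.0 points, and 20 of the 78 were detected in fewer M2 cells, against 7.78% of all genes. Proteasome and ubiquitin genes were at -0.17 and -20.5 points. Under median-of-ratios scaling these 3 medians of level stood at 0.28, 0.14 and 0.08, beside 0.17 for all genes. Set against the median of all genes, they went from 0.006, -0.09 and -0.15 to 0.11, -0.04 and -0.09. In cells sorted as MSC-L the ribosomal and oxidative phosphorylation genes were at -20.8 and -25.8 points and -0.18 and -0.24 by level. In cells sorted as mOPr or OPr they were at -2.62 and -4.29 points and 0.18 and 0.30. All genes were at -10.3 points in cells sorted as MSC-L and at -7.62 points in cells sorted as mOPr or OPr.

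Splicing genes were higher in 23 of 29, at 0.26, with none gained or lost, and lysosome and autophagy genes lower in 20 of 26, at -0.35, with Npc2, a cholesterol carrier of the lysosome, lost. The lysosome list turned by sort: it was at -0.75 with 10 of 26 lost in cells sorted as MSC-L and at 0.17 with 2 gained and 1 lost of 25 in cells sorted as mOPr or OPr, beside the 10.8% and 16.3% of all genes lost there.

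**Figure D3:**
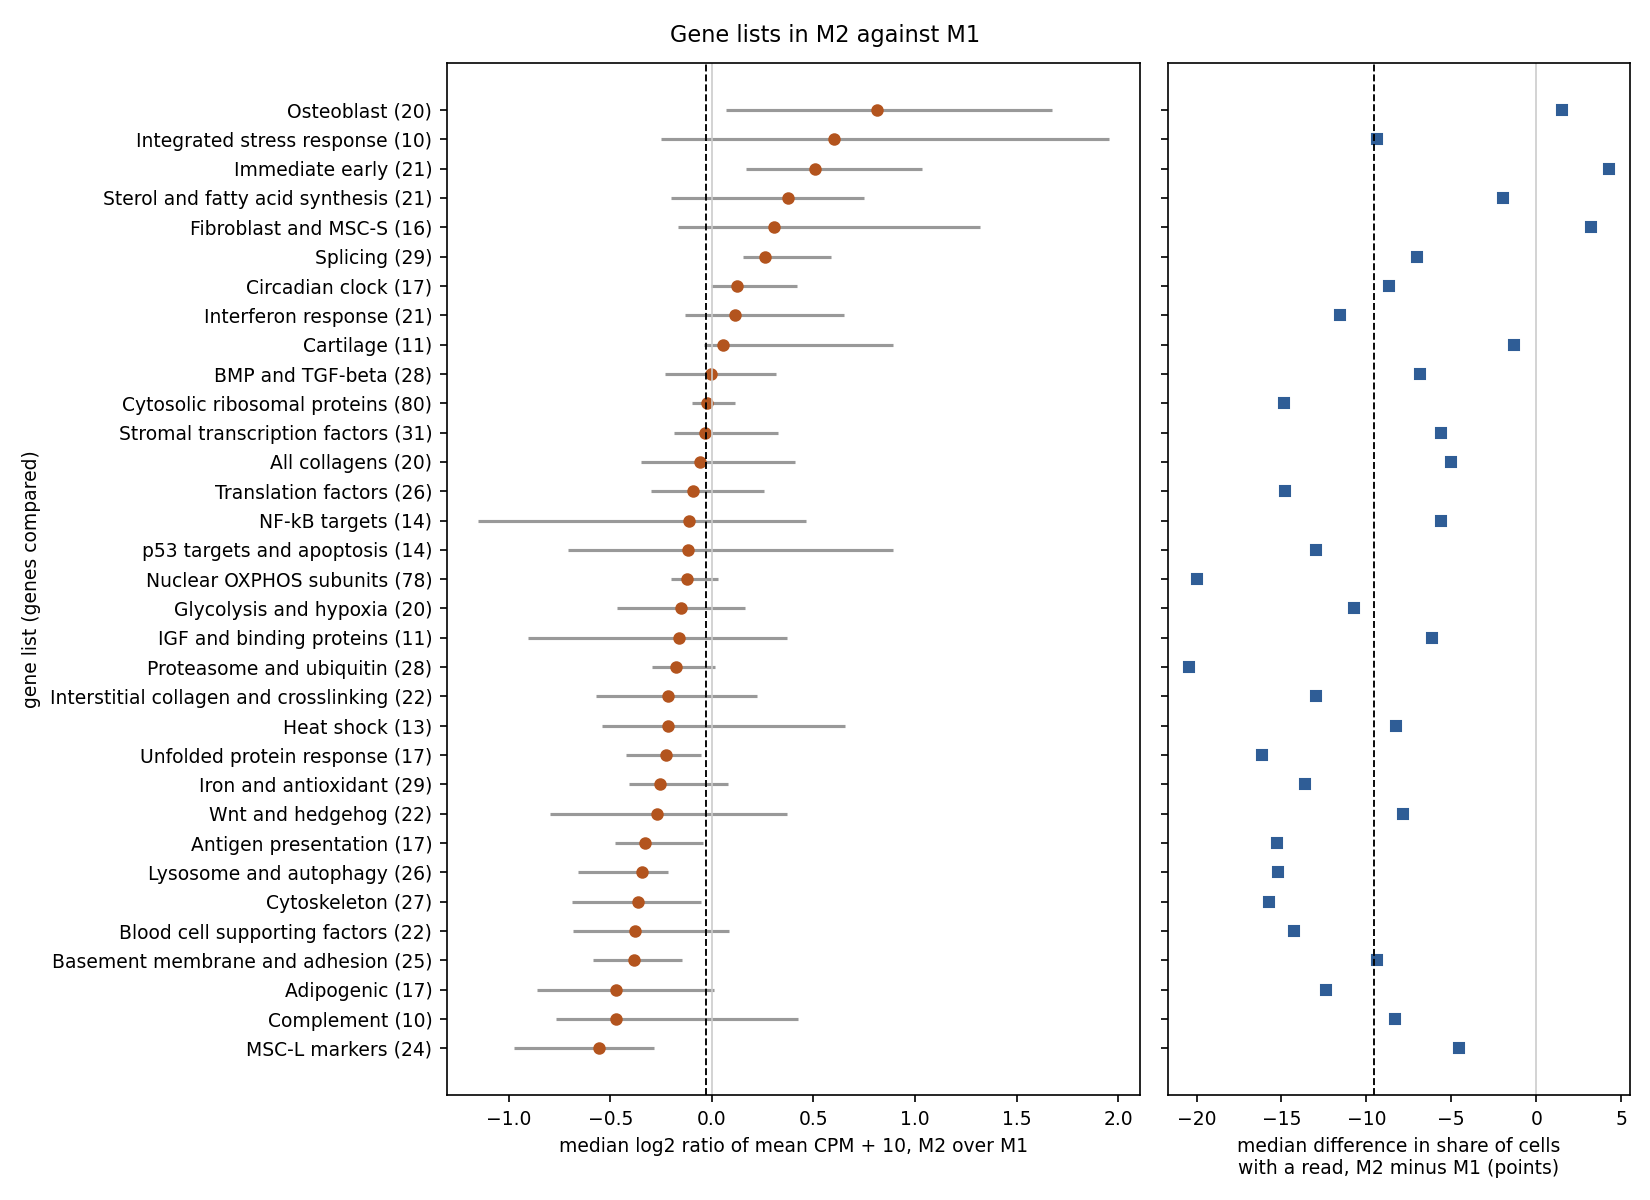
Median log2 ratio of M2 over M1 for each gene list with 10 or more genes compared (left, lines are 95% order-statistic intervals of the median over genes) and median difference in the share of cells with a read (right, percentage points). Dashed lines are the medians of all genes, -0.03 and -9.56 points; osteoblast genes lie highest and MSC-L markers lowest by level.

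Markers of other cell types were present in M2 at low levels. Of 15 hematopoietic markers 13 had a read, summing to 126 CPM in M2 and 125 CPM in M1, led by Arhgdib at 84.3 CPM, while the leukocyte marker Ptprc averaged 0.816 CPM. Of 24 endothelial markers 22 had a read, summing to 115 CPM against 183 CPM, led by Eng at 46.3 CPM, with Cdh5 at 0.816 CPM. At least 3 endothelial markers were found in 22 of 49 M2 cells and 23 of 86 M1 cells. Without cells that carried at least 3 hematopoietic or 3 endothelial markers, 785 genes were gained and 1168 lost. A single read sufficed for a marker, and only 26 M2 and 58 M1 cells were left. Both counts also rose in the smaller subsets by library number, sort and age, so the rise is not particular to this step.

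Erythroid and megakaryocyte markers, all 14 with a read, summed to 236 CPM in M2 and 80.3 CPM in M1, led by Car2 at 110.4 CPM. Hba-a1 (6.12 against 8.72 CPM) and Alas2 (1.63 against 3.95 CPM) were lower in M2, and Pf4 (2.65 against 1.28 CPM) was higher. The sum was 335 against 79.6 CPM in cells sorted as MSC-L but 11.3 against 84.3 CPM in cells sorted as mOPr or OPr. Neutrophil markers, 9 of 15 with a read, summed to 28.8 CPM in M2 and 7.56 CPM in M1, but Mmp9 made up 18.6 CPM of the M2 sum. S100a9 was lower in M2, at 1.43 against 2.21 CPM, and S100a8 higher, at 1.84 against 0.814 CPM. The neutrophil sum was 39.4 against 7.5 CPM in cells sorted as MSC-L but 4.67 against 7.86 CPM in cells sorted as mOPr or OPr. Of 15 Schwann cell markers 11 had a read, at 689.8 CPM against 224 CPM, but Ncam1 made up 448 CPM of this sum and the defining Sox10 was at 0. Pericyte and smooth muscle markers were lower, at 767 CPM against 1417 CPM, with Notch3 and Myl9 lost at -1.28 and -1.33. Whether other cell types contribute to the gained genes was not tested.

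Old mice gave a larger share of M2 cells in each of 3 sorted populations. Among cells sorted as MSC-L, 12 of 53 young (22.6%, 12.3 to 36.2) and 23 of 58 old (39.7%, 27 to 53.4) were in M2. Among mOPr it was 2 of 26 young (7.69%, 0.946 to 25.1) and 10 of 26 old (38.5%, 20.2 to 59.4), and among OPr 0 of 44 young and 3 of 29 old. M1 also held more of the old cells from bone, 0 of 26 young and 4 of 26 old mOPr and 3 of 44 young and 7 of 29 old OPr, but fewer of the old MSC-L, 33 of 58 against 39 of 53 young. No M2 cell was sorted as MSC-S. In 3 runs of library numbers the M2 share of MSC-L was 10, 38.5 and 25% in young and 35, 38.9 and 45% in old cells, taken in order of number. In this order the old share was the higher each time, by little at 38.5 and 38.9%, but the labels do not pair the runs. These shares count cells that passed the authors' filters, which use read number and mitochondrial share, and not cells of a marrow, and the labels do not say which mice gave them.

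Within M2, cells of old mice sorted from bone and from marrow differed widely. In the 13 cells sorted as mOPr or OPr against the 22 sorted as MSC-L, 1910 of 10280 genes (18.6%) were higher in the former and 2141 (20.8%) in the latter. The comparison was added after the data were seen, as were the genes named from it. Immediate early genes were higher in cells from bone for 18 of 21, at a median of 2.79, and in M1 for 19 of 20, at 2.37. Fos, an immediate early transcription factor, averaged 11349 CPM against 1109 CPM in M2.

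Calls of any gene were more frequent in M2 than in M1, where the same comparison gave 8.7% of genes higher in cells from bone and 14.3% higher in cells from marrow, so member counts of the clusters have different backgrounds. The mitochondrial share also differed by place in M2, at medians of 1.25% in cells from bone and 3.02% in cells from marrow. In M1 it differed little, at 1.23% and 1.32%. Genes detected per cell had medians of 4068 and 3634.5 in M2 and 4912 and 5194 in M1. The part of both measures in the values below was not tested. Lysosome genes were higher in M2 cells from bone for 16 of 25, at 1.16, against 1 of 26 and 0.27 in M1. Ctsb, a lysosomal protease, was at 1.80 in M2 and -0.09 in M1, and Psap, the precursor of saposins, at 2.01 and 0.06. Adipogenic genes were higher in 10 of 17, at 1.11, and antigen presentation genes in 9 of 17, at 1.10, against 0.08 and -0.07 in M1. Of the osteoblast genes, 7 of 22 were higher in M2 cells from bone, among them Alpl and Spp1, and 1 was lower; in M1 none of 20 was higher and 6 were lower. Krit1, a protein of endothelial and epithelial junctions, was at -4.52 in M2 and -0.60 in M1.

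Within M2 cells sorted as MSC-L, the 22 old and 12 young cells also differed, in a comparison likewise added after the data were seen. Of 10278 genes, 2079 (20.2%) were higher in old and 1763 (17.2%) in young cells. In M1 the same comparison gave 4.95% and 4.7%, again fewer calls of any gene. Interferon response genes were lower in old cells for 10 of 18, at a median of -1.25, among them Ifitm3, Bst2, Irf9 and Oasl2, against 2 of 21 and -0.06 in M1. Adipogenic genes were lower for 8 of 18, at -0.56, and MSC-L markers for 6 of 23, at -0.41, against 0.12 and -0.04 in M1; the 6 of 23 stand beside 17.2% of all genes. Hp averaged 745 CPM in old and 6968 CPM in young M2 cells, at -3.21, and was at -0.47 in M1.

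Of 19 sterol and fatty acid synthesis genes, 9 were higher and 2 (Hmgcs1, Fasn) lower in old M2 cells, at 1.06, and 9 of 22 were higher in old M1 cells, at 0.89. Heat shock genes were higher for 6 of 13, at 0.97, and circadian genes for 7 of 14 with 1 lower, at 0.87, against 0.54 and 0.26 in M1. Phex, a peptidase of bone mineralization, was at 2.25 in M2 and 1.82 in M1. Wisp2, a secreted Wnt-pathway protein, was at 1.68 in M2 and at -1.01 in M1. With 12 young cells in all, these medians rest on few cells, and young and old M2 cells sorted as MSC-L had mitochondrial shares of 2.59% and 3.02%.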

How the data were processed

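Plate-based single-cell RNA sequencing without molecular tags was done by the authors on 661 sorted stromal cells of young and old mice. The deposited values are counts of reads per gene. Per the labels, the authors used GSNAP (release 2015-09-29) against the GRCm38.p4 assembly and HTSeq for counting, with strand ignored. Reads of genes that overlap or lie antisense to each other were thus not told apart by strand. PCR copies are counted as reads. Clusters were taken from the sample labels, and 307 endothelial columns were not used. No column of the 354 used was identical to another. Of 46078 entries, 270 repeat a symbol and were summed, giving 45771 nuclear and 37 mitochondrial genes.

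Depth per cell is given in the report. Each cell was thinned without replacement to 100000 nuclear counts (seed 20), which left out 1 M2 cell with 87576 counts and kept 49 M2 and 86 M1 cells. At this depth 1 read is 10 CPM. Genes with a read in at least 10% of the pooled cells were compared (11153). A gene was gained or lost when the mean with 10 CPM added differed by a ratio of at least 2 and the mean log2 level differed in the same direction, and detected in more or fewer cells when the shares differed by at least 25 points. Sums have exact Poisson intervals and shares Clopper-Pearson intervals at 95%. Genes were named by a size rule, 15 each way, with the markers and the members of 45 gene lists. Members and lists were chosen with earlier results of these data known, and cells with markers of other lineages were counted in place of a doublet caller. The authors' clustering software picks guide genes, and their names were taken from the study's supplement to count how many stand in each list.

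Alternatives were other thinning depths, another seed, no thinning, summed counts, median-of-ratios size factors, another added value and filter, subsets by library number, sort and age, M1 cells matched by depth, and cells left out by marker, mitochondrial share or genes detected. Gene positions are from GENCODE M21, on the same assembly but another annotation release than the counts. Rn7sk and Serpina3c have close copies in the genome, so their levels are uncertain. The procedure was run on simulated data, where 100 of 100 genes raised by a ratio of 4 and 98 of 100 lowered by it were called. That ratio lies well past the rule of 2, and the same noise between cells was drawn for both clusters. The simulation therefore checked that large changes are called, and not how reliable the calls in M2 are. Scripts ran in Python 3.11.15; tables were handled with pandas 2.3.3 and numpy 2.4.6, intervals came from scipy 1.17.1, and figures from matplotlib 3.10.9.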

Additional observations from a re-analysis of the deposited data

How the results depend on the processing

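The medians of the MSC-L and osteoblast lists kept their direction under every alternative, at -0.85 to -0.35 and 0.37 to 1.44. That of the adipogenic list kept its sign but ranged from -0.73 to -0.02, and the old share of M2 kept its size. Of 600 values of the 30 leading genes 562 kept their call, 37 fell short of it and 1 reversed. The size of the ratios was not compared in this tally. These genes were picked for keeping direction in 5 of the same alternatives, so part of this tally was fixed beforehand. Of 2200 values of all named genes, 1788 kept their call, 386 moved and 26 reversed. The counts of genes moved more, and subsets of cells were smaller. Without cells that carry other markers, 26 M2 and 58 M1 cells were left. Without the 25% of cells with the highest mitochondrial share, 19 M2 and 82 M1 cells were left. Without the detection filter 757 were gained and 716 lost. Genes gained, 511 in the report, numbered 1351 with median-of-ratios factors, 806 with 1 CPM added, 278 with a filter of 25% of cells, 1077 and 792 in library-number ranges 1 and 2, 779 in old and 1107 in young cells, 1532 in cells sorted as mOPr or OPr, 785 without cells that carry other markers, 781 without the 25% of cells with the highest mitochondrial share, 911 in cells with 3500 to 5000 genes and 251 without the highest cell of each gene. Genes lost, 645 in the report, numbered 393, 1455, 392, 1683, 1236, 1118, 1920, 1847, 1168, 1527, 1032 and 1130 under the same alternatives, and 1222 in cells sorted as MSC-L. Genes detected in more cells, 7 in the report, numbered 4 at 50000 counts, 13 at 200000 counts, 4 with another seed, 2 without thinning, 2 with summed counts, 2 with median-of-ratios factors, 71 and 17 in ranges 1 and 2, 17 in cells sorted as MSC-L, 20 in old and 114 in young cells, 349 in cells sorted as mOPr or OPr, 4 with M1 cells matched by depth, 31 without cells that carry other markers, 46 without the high mitochondrial 25% and 61 in cells with 3500 to 5000 genes. Genes detected in fewer cells, 868 in the report, numbered 1331 without thinning, 1331 with summed counts, 1331 with median-of-ratios factors, 1718 in range 1, 1352 in cells sorted as MSC-L, 1419 in young cells, 1450 in cells sorted as mOPr or OPr, 1332 without the high mitochondrial 25% and 512 in cells with 3500 to 5000 genes. Genes detected per M2 cell had medians of 3283 at 50000 counts, 4460 at 200000 and 4787 without thinning. The mitochondrial share of M2 was 1.33% in cells sorted as mOPr or OPr and 1.25% without the high mitochondrial 25%. Within M2, range 1 alone gave 2876 genes higher in old cells sorted as mOPr or OPr, 3605 higher in old and 2909 higher in young cells sorted as MSC-L. Log2 ratios that reversed were Ak3 at 0.084, Fabp4 at 0.38, Eef1d at 0.10, Sdhd at 0.49, Zyx at 0.32 and Eif4a1 at -0.57 in cells sorted as mOPr or OPr; Cebpb at -0.48, Ifit2 at -0.40, Nfil3 at -0.54, Ier3 at -0.58 and Ier5 at -0.39 in cells sorted as MSC-L; Cebpb at -0.34, Sdf2l1 at 0.58, Fas at -0.79, Ifit2 at -0.87, Eif4a1 at -0.86, Ier5 at -2.42, Sqle at -0.58 and Mcm6 at -0.98 in young cells; Sox5 at -0.19, Klf4 at -1.09, Ifit2 at -0.082 and Nfil3 at -0.023 in range 2; Col3a1 at -0.21 and Mcm6 at -0.83 in range 1; and Klf4 at -0.30 in cells with 3500 to 5000 genes. For each of these values the cause was not tested. Young and old cells could not be paired, because the labels name no mouse and pair no runs. Runs of cells sorted as MSC-L held cells of both clusters. M2 was set against M1 within the library-number ranges and not within single runs. The subsets by mOPr or OPr sort, by 3500 to 5000 genes and without the highest cell, and those within M2, were chosen after the data were seen. Thinning limits low genes: at 100000 counts 1 read is 10 CPM, and means below that rest on few cells.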

Other observations

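Smaller gene lists held a few further members that passed the rule in M2. Of 21 sterol and fatty acid synthesis genes 14 were higher, at a median of 0.37, with Sqle and Cyp51 gained and Nsdhl lost. All 4 cell cycle genes compared were higher, with Mcm6 and Pcna gained, and of 24 such genes in the table the other 20 were read in too few cells. Sox5 was the 1 gained gene of 11 cartilage genes, at a list median of 0.05, and Nfil3 that of 17 circadian genes, at 0.13. Guide genes of the clusters make up 10 of the 11 cartilage genes. Hk2 was gained among 20 glycolysis and hypoxia genes, at -0.15, and Mt2 gained and Prdx6 lost among 29 iron and antioxidant genes, at -0.26. Translation factors, 26 compared, were at -0.09 with Eif4a1 gained and Eef1d lost. Of these calls, Sox5 turned to -0.19 and Nfil3 to -0.023 in library-number range 2, Nfil3 to -0.54 in cells sorted as MSC-L, and Mcm6, Sqle and Eif4a1 to -0.98, -0.58 and -0.86 in young cells. Mcm6 was also at -0.83 in range 1, and Eif4a1 and Eef1d at -0.57 and 0.10 in cells sorted as mOPr or OPr. None was gained or lost among 17 antigen presentation genes, 10 complement genes and 11 genes of the IGF system, at -0.33, -0.47 and -0.16. Set against the median of all genes, the glycolysis, complement and IGF lists stayed lower under median-of-ratios scaling, at -0.10, -0.05 and -0.03. Before it they were at -0.12, -0.44 and -0.13, and the translation list went from -0.07 to 0.09.

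Genes of the sex chromosomes were read as follows. A read of a Y-linked gene (Ddx3y, Kdm5d, Uty or Eif2s3y) and none of Xist, the RNA of the inactive X chromosome, was found in 44 of 49 M2 cells, 84 of 86 M1 cells and 164 of the 214 other thinned mesenchymal cells. Xist without a Y-linked read was found in 0 of these cells, and 5 M2 cells had neither. The labels give no sex.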
